A study of Mus musculus with 6 samples.

Results

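Transcripts of 7 muscle genes linked to the sensing of stretch were followed in quadriceps, a muscle of the thigh, in mice with 1 or 2 working copies of the nebulin gene. The genes were Ankrd1, Ankrd2, Ankrd23, Csrp3, Fhl1, Fhl3 and Mustn1, chosen by name through the Entrez identifier of each probe set, and all 7 were found among 16492 gene probe sets, each with 1 probe set. The study measured total RNA with Affymetrix expression arrays, 1 array per mouse, in 3 heterozygous mice (nebulin +/-) and 3 wild-type mice (nebulin +/+). The series title calls the heterozygous animals knock-outs, and the labels list each animal separately with no treatment. The labels state neither strain, age nor sex, and not which part of the gene was removed. The design asks how muscle transcripts differ when 1 nebulin allele is lost, and here that question is put to the stretch-linked genes.

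Ankrd1, Ankrd2 and Ankrd23 encode the muscle ankyrin repeat proteins, which bind the spring-like part of titin in the sarcomere and are also found in the nucleus. Csrp3 encodes muscle LIM protein, a Z-disc protein that is also found in the nucleus, and Fhl1 and Fhl3 encode proteins made of LIM domains in series, a zinc-binding fold that mediates contact with other proteins. Mustn1 encodes a small nuclear protein of the musculoskeletal system and belongs to neither protein family, so the working name of the group does not describe it. Several of these genes are known to respond to stretch, load or injury of muscle, and Csrp3 and Ankrd2 are known to be higher in slow than in fast fibres.

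The upstream sequences of the ankyrin repeat genes, of Csrp3 and of Fhl3 are shown because these genes include the largest difference of the group and the 1 that passed the test. All 7 genes had an entry in the RefSeq promoter table of build GRCm38.p6, with 10 start sites in all, and the 250 bases before each start were searched on both strands. Capitals mark the M-CAT element bound by TEAD factors (CATTCC, or GGAATG on the other strand), the E-box bound by myogenic factors (CANNTG) and the CArG box bound by serum response factor, and no matches overlapped. The windows are chr19:36119845-36120094 on the minus strand for Ankrd1, chr19:42035777-42036026 on the plus strand for Ankrd2 and chr1:36535740-36535989 on the minus strand for Ankrd23. Those of Csrp3 and Fhl3 are chr7:48848052-48848301 on the minus strand and chr4:124700449-124700698 on the plus strand.
Ankrd1: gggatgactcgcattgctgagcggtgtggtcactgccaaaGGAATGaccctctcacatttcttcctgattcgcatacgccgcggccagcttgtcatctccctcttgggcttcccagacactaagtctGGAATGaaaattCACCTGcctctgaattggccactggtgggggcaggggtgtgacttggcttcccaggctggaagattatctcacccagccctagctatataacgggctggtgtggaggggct
Ankrd2: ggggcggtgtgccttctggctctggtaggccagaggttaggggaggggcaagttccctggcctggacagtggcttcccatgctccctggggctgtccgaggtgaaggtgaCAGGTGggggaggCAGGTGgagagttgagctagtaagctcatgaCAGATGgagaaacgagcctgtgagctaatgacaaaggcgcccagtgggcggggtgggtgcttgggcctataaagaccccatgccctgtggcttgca
Ankrd23: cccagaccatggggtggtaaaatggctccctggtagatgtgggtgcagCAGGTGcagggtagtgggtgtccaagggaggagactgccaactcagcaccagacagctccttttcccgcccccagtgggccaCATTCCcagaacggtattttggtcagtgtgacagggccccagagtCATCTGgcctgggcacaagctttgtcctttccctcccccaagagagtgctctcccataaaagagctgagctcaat
Csrp3: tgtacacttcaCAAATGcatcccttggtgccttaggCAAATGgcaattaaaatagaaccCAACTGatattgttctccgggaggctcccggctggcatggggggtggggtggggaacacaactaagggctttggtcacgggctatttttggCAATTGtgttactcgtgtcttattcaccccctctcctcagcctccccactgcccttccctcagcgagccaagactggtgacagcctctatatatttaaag
Fhl3: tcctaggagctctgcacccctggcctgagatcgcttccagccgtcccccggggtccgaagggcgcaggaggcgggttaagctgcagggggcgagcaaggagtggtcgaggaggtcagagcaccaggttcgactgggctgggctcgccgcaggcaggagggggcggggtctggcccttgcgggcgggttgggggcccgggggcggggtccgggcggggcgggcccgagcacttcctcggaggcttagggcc

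The M-CAT letters were found before 2 of the 10 start sites, with 2 matches for Ankrd1, the nearer one 123 to 118 bases before the start, and 1 match for the printed start of Ankrd23. Of all 32851 promoters in the table, 12.6% held these letters in the same window. An E-box was found at 7 of the 10 start sites, belonging to 5 of the 7 genes, against 66.2% of all promoters, so that its presence was common to most genes. Ankrd2 held 3 E-boxes and the printed Csrp3 window 4, while the windows of Fhl3 and Mustn1 held none. The other start of Ankrd23, with its window at chr1:36536557-36536806 on the minus strand, held no E-box and no M-CAT letters. The other start of Csrp3 also held 4 E-boxes. The CArG box was found once, for Fhl1 at chrX:56779433-56779682 on the plus strand, and in 1.47% of all promoters. These matches are of letters only, and binding was not measured.

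The whole arrays were closely alike, with r between 0.9965 and 0.9977 across gene probe sets within a genotype and between 0.9932 and 0.9953 across genotypes. The probe set of Neb, the targeted gene, measured 12.08, 11.73 and 11.94 on the log2 scale in heterozygous mice and 12.17, 12.09 and 12.16 in wild-type mice. Each heterozygous mouse was below each wild-type mouse, but mouse 1 only just, at 12.08 against 12.09 in wild-type mouse 2. Of all probe sets tested, 26.3% were so separated in either direction. The mean difference of -0.22 ± 0.08 (SE) for Neb did not pass the test over all genes (limma, adjusted p = 0.16). Whether the probes of Neb lie in the removed part is not stated by the labels, and the value is therefore no check of the genotypes. Muscle fibre transcripts were bright in both genotypes, with the creatine kinase gene Ckm at 14.64 in each, and the heart myosin gene Myh6 was dim at 6.03 and 6.02. In whole-muscle RNA, more cells of a type and more RNA per cell cannot be told apart.

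All 7 genes had a higher mean in heterozygous than in wild-type muscle, where 49.4% of the 11544 probe sets tested had a difference above 0. The differences ran from 0.12 for Fhl1 to 0.76 for Csrp3 on the log2 scale, or 1.08-fold to 1.69-fold, with a median of 0.32 against a median of 0.00 over all probe sets tested. One gene of the 7, Fhl3, passed an adjusted p of 0.05 (limma, Benjamini-Hochberg over all probe sets tested), where 3.11% of all probe sets passed (1.53% higher and 1.58% lower in heterozygous muscle). The values of the 3 heterozygous mice lay entirely above those of the 3 wild-type mice for Ankrd2, Ankrd23, Fhl3 and Mustn1, 4 of the 7 genes, while 26.3% of all probe sets were so separated in either direction and 13.1% in this one. Before adjustment 6 of the 7 had a limma p under 0.05, as did 20.5% of all probe sets. The genes were picked with earlier results of these data known, so these shares are a description of the 7 and not independent support for a change in the group. The 7 genes were above the filter on dim probe sets, 6.74 on the log2 scale, in every mouse.

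**Figure D1:**
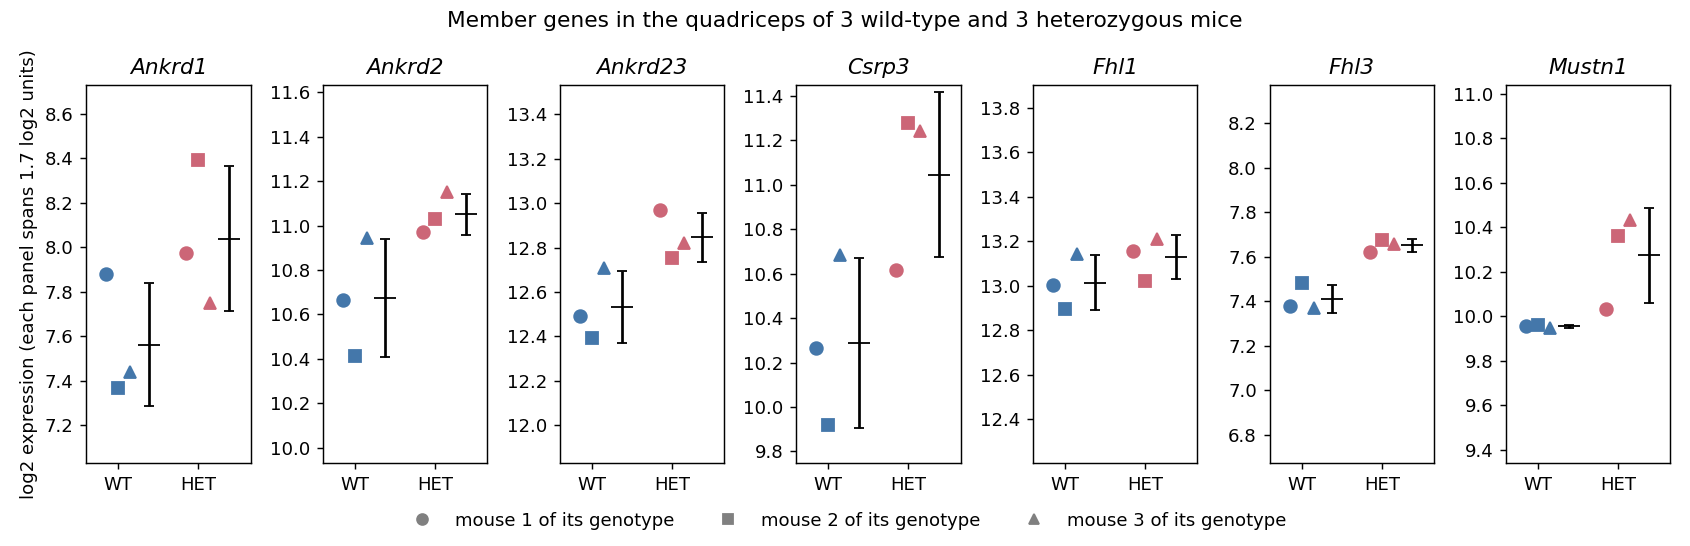
Log2 expression of the 7 genes in each mouse, with wild type (WT, blue) and heterozygous (HET, red) in each panel, a marker shape per mouse number, and the mean with SD of 3 mice in black. Each panel has its own level but the same height in log2 units. The genotypes are fully separated for Ankrd2, Ankrd23, Fhl3 and Mustn1 and overlap for Ankrd1, Csrp3 and Fhl1.

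Of the ankyrin repeat genes, Ankrd23 and Ankrd2 had separate genotype ranges and Ankrd1 did not, and none of the 3 passed the test over all genes. Ankrd1, known for its induction in injured or overloaded muscle, measured 7.97, 8.39 and 7.75 in heterozygous mice 1, 2 and 3 and 7.88, 7.37 and 7.44 in wild-type mice 1, 2 and 3. Heterozygous mouse 2 was the highest, and wild-type mouse 1 lay above heterozygous mouse 3, so the genotypes overlapped. The group means were 8.04 ± 0.33 and 7.56 ± 0.28 (SD, n = 3 each), a log2 difference of 0.48 ± 0.17 (SE) with a 95% interval of 0.08 to 0.87 (limma, adjusted p = 0.17).

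Ankrd2, the member of this family typical of slow skeletal fibres, measured 10.97, 11.03 and 11.15 in heterozygous mice and 10.67, 10.41 and 10.94 in wild-type mice. The 3 heterozygous mice lay close together, and wild-type mouse 3 came within 0.03 of the lowest of them. The means were 11.05 ± 0.09 and 10.67 ± 0.27 (SD, n = 3 each), with a difference of 0.38 ± 0.12 and an interval of 0.11 to 0.64 (limma, adjusted p = 0.12). This gene passed with the mouse number as a block (limma, adjusted p = 0.042) and without wild-type mouse 3, where the difference was 0.51 (limma, adjusted p = 0.043).

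Ankrd23, the family member first described as a diabetes-related ankyrin repeat protein, measured 12.97, 12.75 and 12.82 in heterozygous mice and 12.49, 12.39 and 12.71 in wild-type mice. Wild-type mouse 3 was again the highest of its genotype, 0.04 below the lowest heterozygous mouse. The means were 12.85 ± 0.11 and 12.53 ± 0.16 (SD, n = 3 each), a difference of 0.32 ± 0.08 with an interval of 0.12 to 0.51 (limma, adjusted p = 0.084). Without wild-type mouse 3 it was 0.40 and passed (limma, adjusted p = 0.048).

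Csrp3 had the largest difference of the 7 genes and also the largest spread between mice. It measured 10.62, 11.28 and 11.24 in heterozygous mice and 10.27, 9.92 and 10.68 in wild-type mice. Heterozygous mouse 1 was far below the other 2 of its genotype and just below wild-type mouse 3, so the genotypes overlapped by 1 pair of mice. The means were 11.04 ± 0.37 and 10.29 ± 0.38 (SD, n = 3 each), and the difference of 0.76 ± 0.21, with an interval of 0.27 to 1.25, corresponds to 1.69-fold (limma, adjusted p = 0.098). With heterozygous mouse 1 left out it reached 0.97 and passed (limma, adjusted p = 0.029).

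The FHL genes differed in size of effect and in spread. Fhl3, whose product has been reported to bind actin and the myogenic factor MyoD, rose in heterozygous muscle and was the gene of the 7 that passed the test with all mice. It measured 7.62, 7.68 and 7.66 in heterozygous mice against 7.38, 7.48 and 7.37 in wild-type mice, so that the lowest heterozygous mouse was 0.14 above the highest wild-type mouse. The means were 7.65 ± 0.03 and 7.41 ± 0.06 (SD, n = 3 each), a difference of 0.24 ± 0.04 (SE) with an interval of 0.14 to 0.34, or 1.18-fold (limma, adjusted p = 0.028). It kept its call without heterozygous mouse 1 or wild-type mouse 2, and missed it without heterozygous mouse 2 or 3 or wild-type mouse 1 or 3 (limma, adjusted p of 0.090, 0.094, 0.093 and 0.078), with differences of 0.22 to 0.28 across the 6 fits. The signal of this probe set was modest, 6747th of 16492 in brightness, a rank that reflects probe design in addition to transcript amount.

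Fhl1, whose mutations cause reducing body myopathy in people, was bright in all mice and had the smallest difference of the 7. It measured 13.16, 13.02 and 13.21 in heterozygous mice and 13.003, 12.90 and 13.14 in wild-type mice, and the ranges overlapped, heterozygous mouse 2 lying below wild-type mouse 3. The difference was 0.12 ± 0.07 (SE), and its interval of -0.05 to 0.28 includes 0 (limma, adjusted p = 0.40). A rise of up to 1.21-fold thus lies within the interval. 

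Mustn1, known to be needed for the fusion of cultured mouse myoblasts, measured 10.03, 10.36 and 10.43 in heterozygous mice and 9.96, 9.96 and 9.95 in wild-type mice. The wild-type mice were nearly the same, within 0.01 of each other, whereas heterozygous mouse 1 stood 0.07 above them and the other 2 heterozygous mice further up. The means were 10.27 ± 0.21 and 9.96 ± 0.01 (SD, n = 3 each), a difference of 0.32 ± 0.09 with an interval of 0.11 to 0.53 (limma, adjusted p = 0.098). It passed without heterozygous mouse 1, at a difference of 0.44 (limma, adjusted p = 0.0028), and with weights for array quality, at 0.36 (limma, adjusted p = 0.046). For single genes the two-sided exact permutation test over the 6 mice gave 0.1, the smallest p that this design allows, for the 4 separated genes and 0.2 for the other 3.

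**Figure D2:**
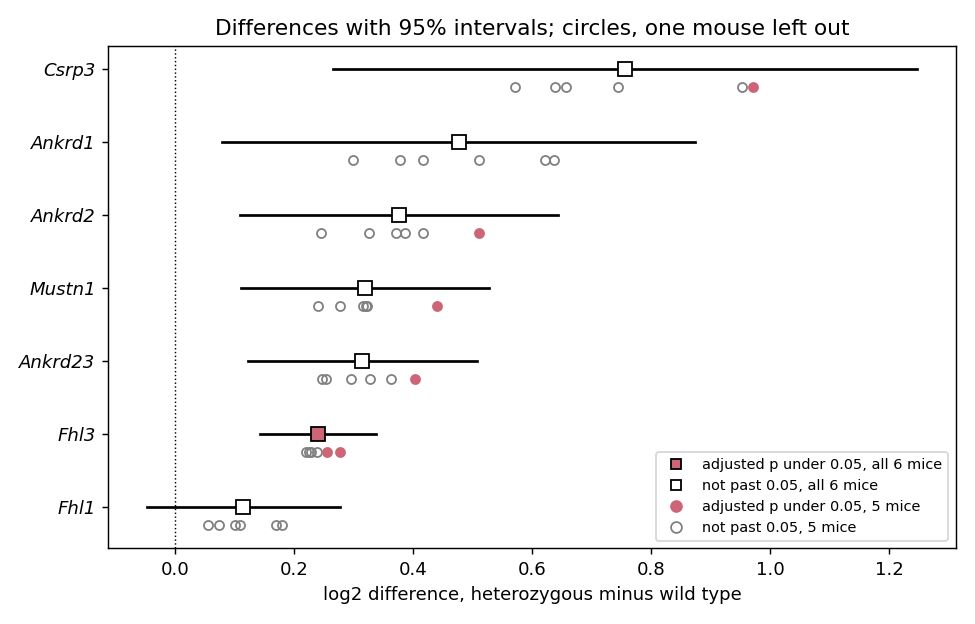
Log2 differences of the 7 genes, heterozygous minus wild type, as squares with 95% intervals from limma over all 6 mice, and below each the 6 values with 1 mouse left out as circles. Filled symbols passed an adjusted p of 0.05. Fhl3 has the narrowest interval and the only filled square, Csrp3 the largest difference, and the interval of Fhl1 alone crosses 0.

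The spread between mice of 1 genotype was shared by several of the genes. Wild-type mouse 2 was the lowest wild-type mouse for 5 of the 7 (Ankrd1, Ankrd2, Ankrd23, Csrp3 and Fhl1), and wild-type mouse 3 the highest for 4 of them, Ankrd1 being the exception. From the wild-type mean, Csrp3 departed by -0.37 in mouse 2 and 0.39 in mouse 3, and Ankrd2 by -0.26 and 0.27. The summed signal of 11 slow fibre genes went the same way in these mice, at 13.48 in wild-type mouse 2 against 13.85 and 13.94 in wild-type mice 1 and 3. Heterozygous mouse 1 was the lowest heterozygous mouse for 4 of the 7 (Ankrd2, Csrp3, Fhl3 and Mustn1). In heterozygous muscle the slow sum did not follow Csrp3, being highest at 14.95 in mouse 1, where Csrp3 and Mustn1 departed from their group means by -0.43 and -0.24. In the same mouse Ankrd1, Ankrd2 and Fhl3 departed by -0.07, -0.08 and -0.03, and Ankrd23 and Fhl1 by 0.12 and 0.03.

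**Figure D3:**
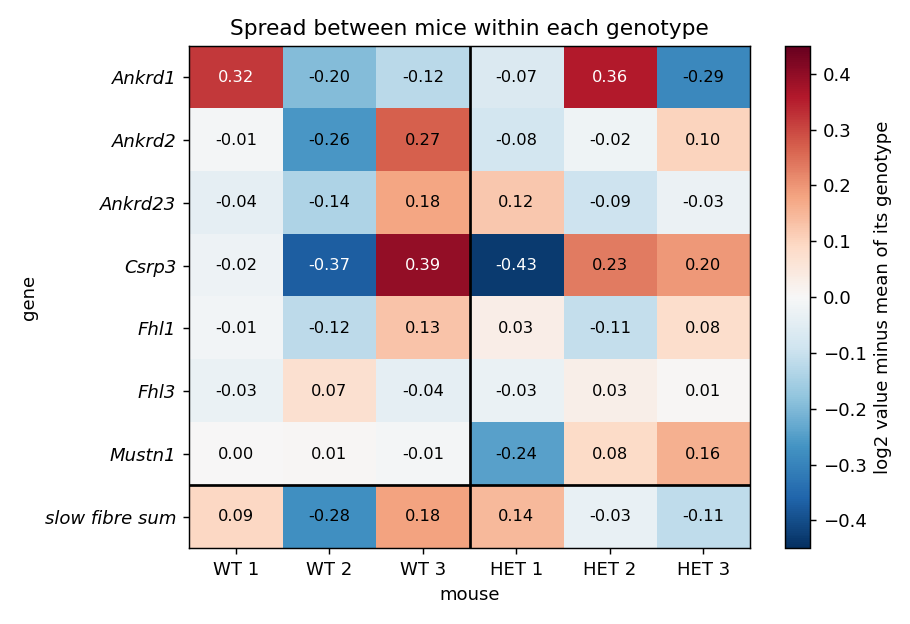
Departure of each gene from the mean of its genotype, in log2 units, for the 3 wild-type and 3 heterozygous mice, with the summed signal of 11 slow fibre genes in the bottom row. Red is above and blue below the genotype mean. Wild-type mouse 2 is blue for 5 of the 7 genes and for the slow sum. Heterozygous mouse 1 is blue for Ankrd1, Ankrd2, Csrp3, Fhl3 and Mustn1, most for Csrp3 and Mustn1, but red for the slow sum.

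Some transcripts of the slow fibre had larger differences than any of the stretch-linked genes. Of 11 tested, 6 rose, none fell and 5 did not pass, where 3.11% of all probe sets passed in either direction. Their differences ranged from -0.04 for Myh7b to 3.00 for Myh7, with a median of 0.71. With the mouse number as a block 7 rose, Atp2a2, the calcium pump gene of slow fibres, being added at a difference of 0.82 (limma, adjusted p = 0.013). The summed signal of the list was 14.69 to 14.95 in heterozygous against 13.48 to 13.94 in wild-type mice. The slow troponin genes Tnnt1 and Tnni1 had the smallest p, with differences of 2.37 ± 0.15 and 2.40 ± 0.16 (limma, adjusted p = 0.0014 for each). Myh7, Tnnc1 and Myl3 also rose, as did Myl2, the slow regulatory light chain, by 0.71 ± 0.14 (limma, adjusted p = 0.035). Myl2 lost its call without heterozygous mouse 1, 2 or 3 or wild-type mouse 1 (limma, adjusted p of 0.050 to 0.11), and the other 5 held theirs in all 6 such fits. None of 11 fast fibre genes passed (limma, and 0 with an unadjusted p under 0.05), with Myh4 and Myh1 lowest in p, at -0.26 and -0.18. At 8 of these 11, 3 or more mice shared 1 value near the top of the common distribution, so their differences, and the list's median of 0.00, were limited by ties. Csrp3 and Ankrd2 are known slow-enriched genes, and the part of the slow genes in their differences was not tested.

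The genes most like 3 of the members in their profile over the 6 mice were named by the mean absolute distance of their centred log2 values, among 10849 named genes. Nearest to Csrp3 was Myl2, at a distance of 0.18, followed by Tcim (0.19) and by the clock-linked repressor gene Nfil3 (0.20). Nearest to Ankrd2 were the potassium channel gene Kcna5 (0.07), Myoz2, which encodes a Z-disc partner of calcineurin (0.08), and Ddit4l, a relative of an mTOR inhibitor gene (0.08). Nearest to Ankrd1 were Casq2, the calcium store protein of slow and cardiac muscle (0.13), Pdlim1 of the LIM and PDZ family (0.15) and Ddah1 (0.16). The distance shrinks with the spread of a gene, and it includes the difference between genotypes. By the same measure the closest pair of the 7 was Fhl3 and Mustn1, at 0.10.

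The median over 25 other ankyrin and LIM genes tested was 0.06. Of these, 2 rose, none fell and 23 did not pass, where 3.11% of all probe sets passed. The 2 that rose were Ablim3, an actin-binding LIM gene, and Csrp2, the relative of Csrp3 best known from smooth muscle. Ablim3 rose by 0.23 ± 0.04 (limma, adjusted p = 0.025), from 7.56, 7.52 and 7.61 in wild-type mice to 7.82, 7.78 and 7.78 in heterozygous mice. Csrp2 rose by 0.24 ± 0.05 (limma, adjusted p = 0.042), from 7.07, 7.09 and 6.97 to 7.35, 7.27 and 7.23. Neither overlapped between genotypes, a separation that 13.1% of all probe sets had in this direction. Csrp2 missed the threshold in all 6 fits that left out a mouse (limma, adjusted p of 0.064 to 0.11), and Ablim3 passed only without heterozygous mouse 1 or wild-type mouse 3 (limma, adjusted p = 0.037 and 0.043). Fhl2, the FHL gene of the heart, had a difference of 0.08 ± 0.04 (limma, adjusted p = 0.33), and Fhl4 and Fhl5 were below the filter.

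None of 25 genes of titin, the Z-disc and their binding partners passed, with a median of 0.03. Of the 25, 5 had an unadjusted limma p under 0.05, as did 20.5% of all probe sets. Smallest in p were Myoz3, a calcineurin-binding Z-disc gene, at -0.15 ± 0.04, and Tcap, encoding the telethonin that caps titin and binds muscle LIM protein, at 0.13 ± 0.03 (limma, adjusted p = 0.078 and 0.087). Titin itself, which the ankyrin repeat proteins bind, had a difference of -0.18 ± 0.11 for Ttn (limma, adjusted p = 0.41).

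Of 30 transcription regulators linked to mechanical signals, 1 rose, 1 fell and 28 did not pass, where 3.11% of all probe sets passed. The median of the list was 0.00. With the mouse number as a block 3 rose and 2 fell, the additions being Nfkbia at 0.41, Myod1 at 0.35 and Rcan1 at -0.53 (limma, adjusted p = 0.0072, 0.037 and 0.021). Myog, the myogenic factor of differentiation, rose by 0.38 ± 0.07, from 7.01, 7.18 and 7.19 in wild-type to 7.59, 7.58 and 7.37 in heterozygous mice (limma, adjusted p = 0.032). Mrtfa, a coactivator of serum response factor that senses free actin, fell by 0.26 ± 0.06, from 8.26, 8.19 and 8.26 to 8.05, 7.85 and 8.01 (limma, adjusted p = 0.046). Both were apart between genotypes in every mouse, as were 12 of the 30 regulators in all and 26.3% of all probe sets. Mrtfa passed only without heterozygous mouse 1 among the fits that left out a mouse (limma, adjusted p = 0.029, others up to 0.13), and Myog only without heterozygous mouse 1 or 3 (limma, adjusted p = 0.0496 and 0.040, others up to 0.10). Of the factors whose motifs were searched, Srf had a difference of -0.11 ± 0.04 (limma, adjusted p = 0.18), and the M-CAT factors Tead1, Tead2, Tead3 and Tead4 of -0.0025, 0.04, 0.01 and -0.13 (limma, adjusted p of 0.99, 0.66, 0.94 and 0.087). Of the E-box factors, Myog is given above. Myod1 had a difference of 0.35 ± 0.08 and Myf5 of 0.01 ± 0.04 (limma, adjusted p = 0.061 and 0.90).

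**Figure D4:**
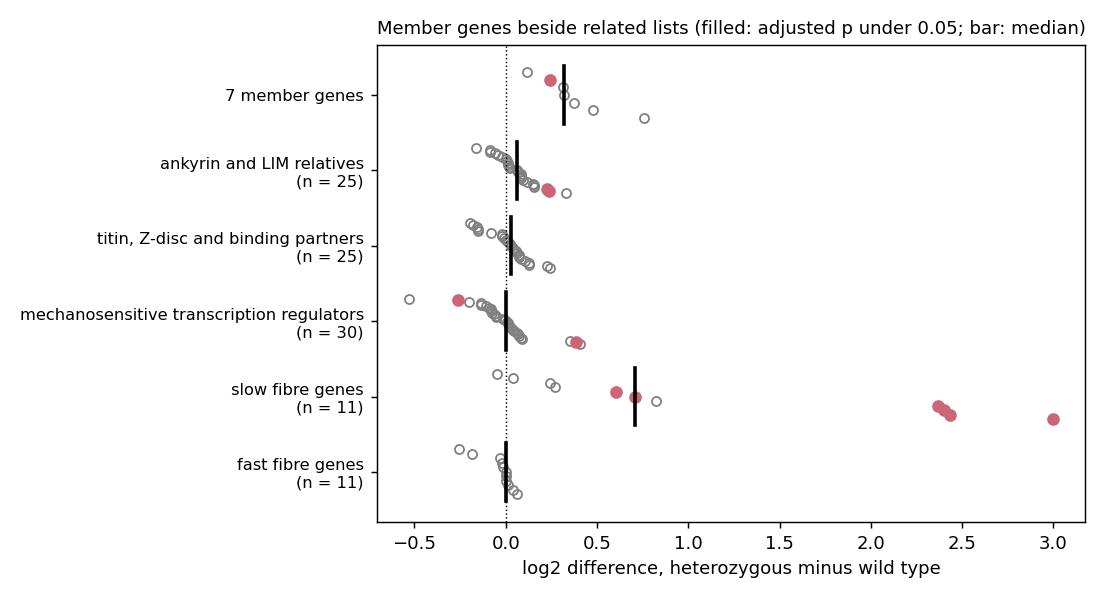
Log2 differences, heterozygous minus wild type, of the 7 genes and of the tested genes of 5 related lists, 1 point per gene. Filled points passed an adjusted p of 0.05 in limma and bars are medians. The median of the 7 genes, 0.32, lies above the medians of the relatives, the titin and Z-disc list and the regulators, which run from 0.00 to 0.06, and below the 0.71 of the slow fibre genes, 4 of which had smaller differences than 0.32.

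Markers of other cells in the muscle were read beside these results. Of all probe sets, 20.5% had an unadjusted limma p under 0.05. The summed signal of 8 tendon markers was 12.78 to 12.86 in heterozygous and 12.45 to 12.78 in wild-type mice, and all 7 tested had positive differences, none of which passed (limma, 3 with an unadjusted p under 0.05). The sum of 5 smooth muscle markers, of interest because Csrp2 is best known from that tissue, was 11.18 to 11.70 against 11.12 to 11.47, and none of the 5 passed (limma, 0 with an unadjusted p under 0.05). For 6 heart muscle markers the sums were 9.25 to 9.31 and 9.17 to 9.28, with Myh6, Myl7, Nppb and Tnni3 below the filter. The sum of 4 satellite cell markers was 9.10 to 9.14 against 9.09 to 9.19, with Pax7 and Calcr below the filter. The sums of these 4 lists overlapped between genotypes, though the tendon sums only at their edge.

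The endothelial markers separated the genotypes in their sum, in the downward direction, but not each on its own. Their sum over 5 genes was 10.67 to 10.79 in heterozygous and 10.86 to 10.94 in wild-type mice. Egfl7 fell by 0.25 ± 0.04 (limma, adjusted p = 0.027). A lower value at an unadjusted limma p under 0.05 was found for 3 of the 5, where 20.5% of all probe sets had such a p in either direction. Cdh5 and Pecam1 had differences of -0.08 and 0.02 (limma, adjusted p = 0.28 and 0.86). With the block Kdr also passed, at -0.25 (limma, adjusted p = 0.017). Of the fits that left out a mouse, Egfl7 passed only in that without heterozygous mouse 1 (limma, adjusted p = 0.019, others up to 0.091). The 3 Schwann cell markers measured all had positive differences, 2 of them with an unadjusted limma p under 0.05 and none passing, and sums of 9.28 to 9.69 against 9.004 to 9.30. The 3 adipocyte markers had sums of 11.56 to 11.95 against 11.61 to 11.87 and none passed. Of these, 2 had an unadjusted limma p under 0.05, 1 higher and 1 lower. With the block Fabp4 passed, at -0.22 (limma, adjusted p = 0.036). Lep and Adipoq went the other way, at 0.52 and 0.34 without the block (limma, adjusted p = 0.11 and 0.49). The sums of 5 fibroblast, 3 leukocyte and 1 red cell marker overlapped between genotypes as well, and none of these genes passed (limma, 1 fibroblast marker and no other with an unadjusted p under 0.05). For all these lists the part in the differences of the stretch-linked genes was not tested.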

How the data were processed

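Expression was measured in quadriceps RNA of 3 heterozygous and 3 wild-type mice, and the authors deposited 1 column of log2 values per array with 1 probe set per Entrez gene. Per the labels' protocols, Trizol and a Qiagen kit were used for RNA, and biotinylated cRNA followed the Affymetrix procedure. No source used here names the software, the background correction or the probe definition. The 6 sorted columns were identical (largest difference 0), so that a change common to every transcript is hidden, and bright probe sets can be tied.

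Of 16556 entries, 64 are controls and 16492 are gene probe sets, of which the platform annotation names 15270 with 1 symbol each and leaves 1222 unnamed here. All 15270 Entrez identifiers matched a RefSeq table of GRCm38.p6, used for symbols. Probe sets with a mean over 6 arrays above the 30th percentile, 6.74, were tested, 11544 in all. The comparison used limma (version 3.58.1, lmFit then eBayes; R version 4.3.3), with Benjamini-Hochberg adjustment over all tested probe sets and intervals at 95%. The fit was run on simulated data with 50 probe sets changed at each size. It recovered 94% at a log2 change of 0.3 and 100% at 0.5, 1 and 2, with 13 false calls among 11544 probe sets. With no change simulated there were 0 calls. These figures hold for the simulated setting only. The number of arrays limits the precision.

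Same-numbered mice of the 2 genotypes deviated together from their group means (r = 0.19, 0.23 and 0.13 across probe sets), which met the limit of 0.1 set for pairing. Mice of unlike number had r of -0.17 to -0.04. The labels do not say what a number stands for, so the fit without the block was kept as the main one and the block as an alternative. Blocked values stand beside a result where they change its call. With the block, 572 probe sets passed, and 359 without it. Of the 7 genes 2 passed with the block and 1 without it, and 7 against 6 had an unadjusted limma p under 0.05. Ankrd23 and Csrp3 just missed the threshold with the block (limma, adjusted p = 0.0501 and 0.056). A sum over a list is the log2 of the summed linear signals of its measured probe sets, so the brightest weigh most.

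The 7 genes, the related lists and the cell type markers were chosen with earlier results of these data known. The rule for named genes took the 7 members, Neb, the called genes and the 2 smallest p of each list, and the 3 nearest genes for the 3 members of largest range. Ttn, Srf, the Tead genes, Myod1, Nfkbia, Rcan1, Atp2a2, Myh7b, Fhl2, Fhl4, Fhl5 and the marker genes were named after their values were seen.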

Additional observations from a re-analysis of the deposited data

How the results depend on the processing

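The 7 differences were recomputed under 12 alternatives: no filter on dim probe sets, a filter at the 50th percentile, an intensity trend, array weights, cyclic loess, the replicate block and each of the 6 mice left out. All 84 values were positive; 74 stayed on the same side of the threshold, 6 passed only under the alternative (Ankrd2 under 2 of them, Mustn1 under 2, Ankrd23 and Csrp3 under 1 each), and 4, all of Fhl3 with a mouse left out, no longer passed. The number of the 7 that passed was 1 in the fit given, 2 with array weights and 2 with the replicate block, and 0 to 3 when a mouse was left out, with 5 or 6 of the 7 at an unadjusted limma p under 0.05 in those 6 fits. Over all probe sets 359 passed, 572 with the replicate block, and 84 to 503 when a mouse was left out. Of the genes in the related lists 10 passed, 14 with the replicate block, 13 with array weights, and 5 to 10 when a mouse was left out. Each such fit has 2 arrays in 1 genotype and so fewer samples; why single calls moved was not tested. Ties among the brightest probe sets limit 8 of the 11 fast fibre genes and 2 of the 25 titin and Z-disc genes. They hide any difference in Mylpf and Pvalb (14.55 and 14.44 in every mouse). No measure of signal over background was used here.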

Other observations

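Nearest neighbours in profile were also looked at for the 4 members of smaller range, a choice made after the values were seen. Mustn1 was nearest to Rbp7, a retinol-binding protein gene (distance 0.03), which measured 6.998, 7.40 and 7.39 in heterozygous mice and 6.94, 6.95 and 6.97 in wild-type mice, likewise with heterozygous mouse 1 next to the wild-type mice. Cth, an enzyme gene of cysteine synthesis (0.04), and C1qtnf4 (0.04) followed, and in none of these 3 did the difference pass (limma, adjusted p of 0.12, 0.078 and 0.11). Ankrd23 was nearest to Hbegf, a growth factor gene of the EGF family (0.05), which rose by 0.38 on the log2 scale (limma, adjusted p = 0.012). Fhl3 was nearest to Ifi30 (0.02) and to the fat storage gene Fitm1 (0.02), which rose by 0.26 and 0.21 (limma, adjusted p = 0.028 and 0.036). Fhl1 was nearest to the splicing kinase gene Clk1 (0.02), with a difference of 0.12 (limma, adjusted p = 0.31). Genes of small spread lie close to each other by this distance whatever their function.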
